A study of Mus musculus with 24 samples.

Results

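T cell receptor repertoires of tumor 1 were compared with those of tumor 2 in the 9 mice whose bilateral tumors were harvested at different times, to ask whether the usage of V and J segments, the length of the CDR3 and the sizes of clones shifted between the tumors of a mouse. All samples except the time-matched ones were taken, which gave 18 of the 24 tumors and 36 of the 48 libraries (1 TCRβ and 1 TCRα library per tumor). The tumors were CT26.CL25, a derivative of the CT26 mouse colon carcinoma line, grown under the skin of both flanks of female BALB/c mice aged 7 to 9 weeks. In each of the 9 mice 1 tumor was excised on day 9, at 4 to 5 mm, and the other was harvested on day 20, an interval of 11 days. Mice 4, 17 and 19 were untreated (they also serve as the vehicle group of the study), mice 3, 11 and 20 received 0.5 mg/kg decitabine (DAC), an inhibitor of DNA methyltransferases, and mice 7, 10 and 16 received 2 mg/kg. Dosing began 3 days after surgery and was intraperitoneal on 5 consecutive days, so that the excised tumor was never exposed to the drug. The time-matched mice 6, 12 and 14 had both tumors taken on day 13 and were untreated. The labels number the tumors 1 and 2 but do not say which of them was excised first, so a difference given here as tumor 2 minus tumor 1 has no stated direction in time.

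The receptor of an αβ T cell is made of a β and an α chain, and each chain is assembled in the thymus by joining a V segment to a J segment (with a D segment between them in the β chain). The V segment encodes the loops CDR1 and CDR2 and the start of CDR3, the J segment encodes the end of CDR3, and bases lost or added at the joins make the middle of CDR3 particular to a clone. When T cells divide in a tumor, all daughters carry the same chains, so the share of a segment can move because a few clones grew or because many small clones came or went, and for that reason each share was measured by counts and by distinct clonotypes. A clonotype was a CDR3 amino acid sequence with its V and J segment.

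The largest TCRβ clonotype of each of the 9 mice, by its share summed over both tumors, is shown to give the scale of the clones that weigh on a share of counts. CDR3 residues of up to 14 letters are given with the name, and the sequences run from the 5′ to the 3′ end, and capitals mark the bases between the stretch that at least 80% of the CDR3 sequences with that V segment share and the stretch that at least 80% of those with that J segment share.
Mouse 3, TRBV19 and TRBJ2-1: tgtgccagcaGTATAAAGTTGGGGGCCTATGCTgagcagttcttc
Mouse 4, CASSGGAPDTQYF, TRBV13-3 and TRBJ2-5: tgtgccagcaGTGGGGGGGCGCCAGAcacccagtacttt
Mouse 7, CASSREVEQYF, TRBV17 and TRBJ2-7: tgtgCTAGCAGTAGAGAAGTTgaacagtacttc
Mouse 10, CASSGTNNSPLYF, TRBV17 and TRBJ1-6: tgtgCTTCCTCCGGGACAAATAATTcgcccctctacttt
Mouse 11, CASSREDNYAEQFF, TRBV17 and TRBJ2-1: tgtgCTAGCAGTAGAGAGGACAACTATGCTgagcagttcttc
Mouse 16, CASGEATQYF, TRBV13-2 and TRBJ2-5: tgtgccaGCGGTGAGGCcacccagtacttt
Mouse 17, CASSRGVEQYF, TRBV17 and TRBJ2-7: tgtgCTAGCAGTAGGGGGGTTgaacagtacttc
Mouse 19, TRBV17 and TRBJ2-7: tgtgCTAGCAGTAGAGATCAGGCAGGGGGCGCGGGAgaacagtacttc
Mouse 20, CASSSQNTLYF, TRBV17 and TRBJ2-4: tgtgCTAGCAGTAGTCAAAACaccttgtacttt

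Of these 9 clonotypes, 6 carried TRBV17 and 8 carried a J segment of the TRBJ2 cluster. Each of the 9 had counts in tumor 1 as well as in tumor 2, with a higher share in tumor 2 in 7 mice and a lower one in 2. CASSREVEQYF of mouse 7 went from 0.606% of the TCRβ counts (95% Clopper-Pearson interval 0.578 to 0.635, counting error only) to 15.9% (15.7 to 16.2). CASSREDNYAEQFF of mouse 11 went the other way, from 16.7% (16.6 to 16.9) to 3.83% (3.71 to 3.95). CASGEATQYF of mouse 16 was the largest clonotype of both its tumors, at 30.0% and 33.1% of the counts. Each of the 9 also had counts in at least 1 other of the 9 mice, where its highest share ran from 0.000225%, below the share of 3 counts in any library, to 0.771%.

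Retained counts ran from 63291 to 887567 per TCRβ library (median 199081 in tumor 1 and 169451 in tumor 2) and from 26623 to 236622 per TCRα library (183066 and 87179). Tumor 2 held fewer counts in 7 of 9 mice on both chains, with a mean log2 ratio of -0.59 ± 0.98 (SD, n = 9 mice; exact sign-flip test p = 0.105) for TCRβ and -0.82 ± 0.97 (exact sign-flip p = 0.0156) for TCRα, where mouse 7 lay at -3.06. Clonotype shares, clone sizes and clonotype numbers were therefore taken from libraries thinned to 63291 (TCRβ) or 26623 (TCRα) counts. The libraries hold receptor transcripts only, so the labelled tissue could not be checked by marker genes. For the lower counts, fewer T cells with a receptor, less receptor RNA per cell and a lower sequencing depth cannot be told apart.

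TCRβ V and J usage by distinct clonotypes differed between the tumors of a mouse in 6 of 33 segments tested (18.2%), 5 of them lower in tumor 2 (15.2%) and 1 higher (3.03%). TRBV1, TRBV2, TRBV5, TRBV20 and TRBJ1-3 took a smaller share of the clonotypes of tumor 2, and TRBV4 took a larger share. Each of the 6 had an adjusted p of 0.0430 in the exact sign-flip test over 9 mice with Benjamini-Hochberg adjustment over the V and J segments of the chain, a test whose smallest possible p is 0.00391. Segments below 0.1% of the clonotypes on average, or found in fewer than 9 of the 18 libraries, were not tested, which left out 4 of the 37 found.

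TRBV1, the V segment at the 5′ end of the β locus, made up 5.00%, 6.15% and 9.53% of the clonotypes of tumor 1 (lowest, median and highest of 9) and 1.35%, 3.99% and 7.04% of those of tumor 2. It was lower in tumor 2 in 9 of 9 mice, although the ranges of the groups overlapped, and fell by 2.36 ± 1.72 percentage points (SD, n = 9). TRBV20 was at 2.98%, 4.25% and 6.79% in tumor 1 and at 0.811%, 2.56% and 6.13% in tumor 2. It too was lower in all 9 mice, and fell by 1.64 ± 1.86 percentage points. Mouse 19 held the widest gap, from 6.79% to 0.811%, and without it the mean difference was -1.10.

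TRBV5 spanned 4.55%, 8.80% and 11.1% in tumor 1 and 2.18%, 5.94% and 8.85% in tumor 2, and fell by 2.94 ± 3.03 percentage points. It was lower in 8 mice, and mouse 16 was level at 4.55% and 4.61%. TRBV2 spanned 2.30%, 3.16% and 3.90% in tumor 1 and 0.486%, 2.43% and 3.44% in tumor 2. It fell by 0.854 ± 0.904 percentage points, with mouse 10 as the exception. TRBJ1-3, a J segment of the first β cluster, spanned 3.38%, 3.90% and 5.73% in tumor 1 and 0.877%, 3.07% and 4.95% in tumor 2. It fell by 1.32 ± 1.39 percentage points, with mouse 4 as the exception. TRBV4 rose, from 2.87%, 4.26% and 8.65% to 3.08%, 6.06% and 9.67%, by 1.59 ± 1.66 percentage points. Mouse 7 was the exception, at 4.06% and 3.99%.

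**Figure D1:**
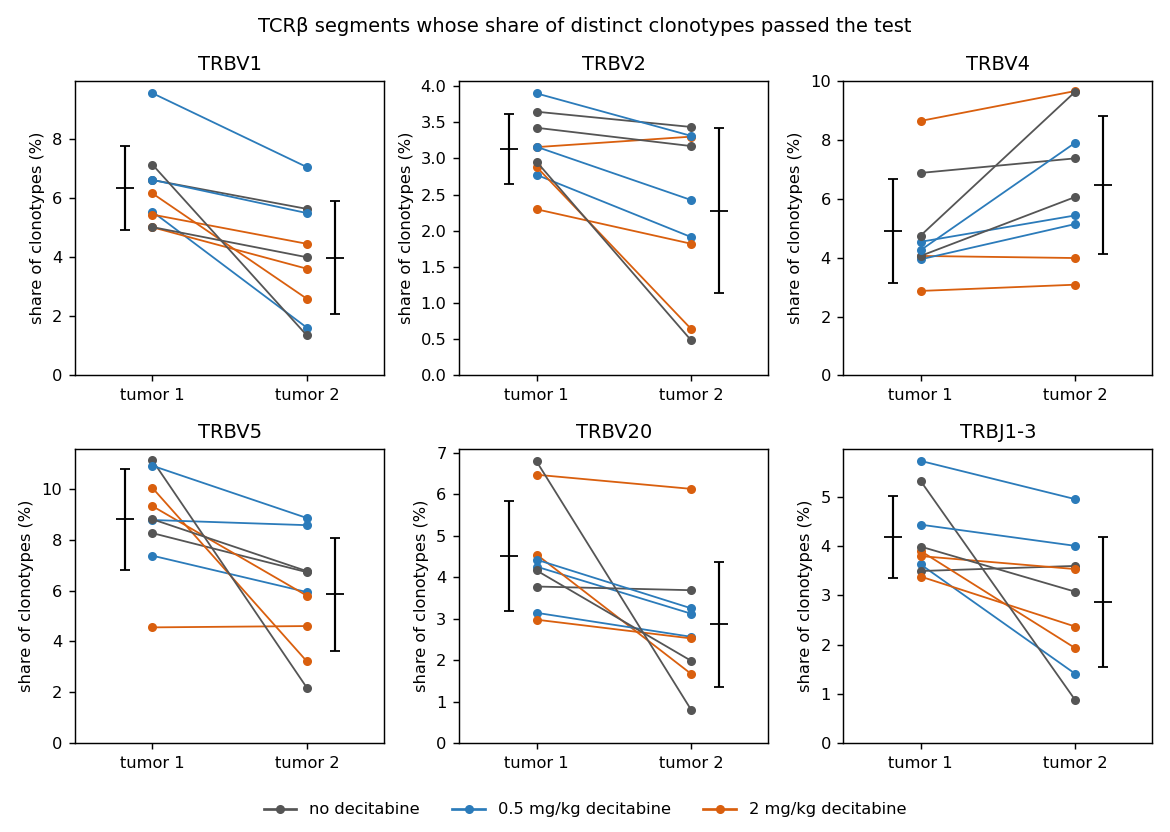
Share of distinct clonotypes (%, y axis from 0) of the 6 TCRβ segments that passed the test, in tumor 1 and tumor 2 of each of the 9 mice (lines join the tumors of a mouse, colours give the dose, black bars the mean and SD). TRBV1 and TRBV20 fell in 9 of 9 mice and the others moved one way in 8 of 9, while the ranges of tumor 1 and tumor 2 overlap in every panel.

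These 6 calls rested on all 9 mice. With any 1 mouse left out, 0 of the 33 segments passed (the adjusted p of the 6 was then up to 0.0859). None passed when each clonotype that differed at 1 residue from one of the same V, J and length with at least 100 times its counts was merged into it (which removed 17.3 to 35.6% of the TCRβ clonotypes of tumor 1 and 29.1 to 47.0% of those of tumor 2). The differences then kept their sign, at -1.44 for TRBV1, -0.95 for TRBV2, -1.97 for TRBV5, -1.70 for TRBV20, -0.75 for TRBJ1-3 and 1.38 for TRBV4. None passed either with a count minimum of 10, where TRBV5 differed by -1.29, TRBV1 by -1.46, TRBJ1-3 by -0.858 and TRBV2 by -1.31, nor with nucleotide clonotypes, adjustment over both chains or an unpaired test. Nucleotide clonotypes gave differences of the same size (TRBV1 -2.46, TRBV5 -3.03 and TRBJ1-3 -1.38, adjusted exact p = 0.0625 each), and the adjustment over both chains and the unpaired test leave the differences as they are. With V and J segments adjusted separately the 5 V segments passed and TRBJ1-3 did not (adjusted exact p = 0.0781). With edgeR's quasi-likelihood test on the clonotype numbers and the mouse as a block, 2 of the 33 segments passed (6.06%), TRBV1 (log2 fold change -0.87, adjusted p = 0.0170) and TRBV5 (-0.66, adjusted p = 0.0219).

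The clonotypes of these segments were mostly small. In tumor 1 the 9 mice held 118 clonotypes above 1% of the TCRβ counts, of which 3 carried TRBV1, 6 TRBV5, 2 TRBV20 and 4 TRBV4, and in tumor 2 they held 143, of which 2, 4, 3 and 12 did. The number of TRBV1 clonotypes per library (all retained counts) went from 139 to 267 in tumor 1 to 16 to 171 in tumor 2. These numbers are not at equal depth, and those of all TCRβ clonotypes went from 2431 to 3264 to 777 to 3073. When the clonotypes at or above 0.1% of counts were set aside, TRBV1, TRBV20 and TRBV4 passed (adjusted exact sign-flip p = 0.0443 each). TRBV5 (-2.81), TRBV2 (-0.808) and TRBJ1-3 (-1.25) kept differences close to those above and missed the threshold, with adjusted exact p of 0.0531 to 0.0569.

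The clonotypes of the called segments that changed most show single clones moving both ways, also within a segment whose share of clonotypes fell. Their CDR3 sequences are given for the largest fall of TRBV1 and of TRBJ1-3 and the largest gains of TRBV5, TRBV4 and TRBJ1-3, written as above.
Mouse 20, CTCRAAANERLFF, TRBV1 and TRBJ1-4: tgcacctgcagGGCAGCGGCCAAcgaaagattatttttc
Mouse 11, TRBV16 and TRBJ1-3: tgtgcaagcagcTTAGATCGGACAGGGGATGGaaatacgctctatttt
Mouse 11, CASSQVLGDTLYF, TRBV5 and TRBJ2-4: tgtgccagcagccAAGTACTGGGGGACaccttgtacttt
Mouse 19, TRBV4 and TRBJ1-1: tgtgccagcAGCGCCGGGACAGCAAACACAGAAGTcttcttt
Mouse 11, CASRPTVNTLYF, TRBV4 and TRBJ1-3: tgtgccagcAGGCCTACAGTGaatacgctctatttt

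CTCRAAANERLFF, found in mouse 20 and none of the other 8 mice, went from 1.83% of the TCRβ counts (1.76 to 1.90) to 0.105% (0.0853 to 0.127). The TRBV16 and TRBJ1-3 clonotype of mouse 11 went from 3.43% to 1.38%, while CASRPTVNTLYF of the same mouse, with the same J segment, went from 10 counts (0.00502%) to 1486 (95% interval 1.43 to 1.58%). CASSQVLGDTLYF went from 2.10% to 7.40% in mouse 11, the 1 mouse with a higher TRBV5 share of counts in tumor 2. The TRBV4 and TRBJ1-1 clonotype of mouse 19 went from 0.523% (0.479 to 0.571) to 9.18% (9.05 to 9.30), the widest change of any TRBV4 clonotype.

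By share of counts no TCRβ segment passed, 0 of 29 (0%), with a lowest adjusted p of 0.151. At an unadjusted exact sign-flip p under 0.05 there were 7 segments (24.1%), 6 lower in tumor 2 (20.7%) and 1 higher (3.45%), and edgeR called 1 (3.45%), TRBV1 (log2 fold change -1.86, adjusted p = 0.0194). TRBV1 went from 1.21%, 3.81% and 11.1% of the counts of tumor 1 to 0.266%, 1.06% and 4.90% of those of tumor 2, a difference of -2.76 ± 2.38 percentage points with 8 of 9 mice lower (adjusted p = 0.151). TRBV5 differed by -2.82 ± 3.61 and TRBV2 by -0.605 ± 0.761 percentage points, each with an adjusted p of 0.189. TRBV20 differed by -0.654 ± 1.90 (adjusted exact sign-flip p = 0.819), and by -0.163 without mouse 19. TRBV4 differed by 1.70 ± 3.62 (adjusted exact sign-flip p = 0.557), and by 0.894 without mouse 20. Mouse 4 ran against the mean in 5 of the 6 segments called by clonotypes when these were weighed by counts, TRBV5 being the other one. The most used segment by counts, TRBV17, went from 7.85%, 21.1% and 36.2% to 8.21%, 26.5% and 42.8%. It was higher in 8 of 9 mice and did not pass by counts (4.94 ± 10.4 percentage points, adjusted p = 0.525) or by clonotypes (4.56 ± 7.25, adjusted p = 0.193). Without mouse 11 the difference by counts was 7.72, and without mouse 19 those by counts and by clonotypes were 2.84 and 2.51. TRBV13-1, the second by counts, differed by 0.122 ± 6.15, and by 1.90 without mouse 4.

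**Figure D2:**
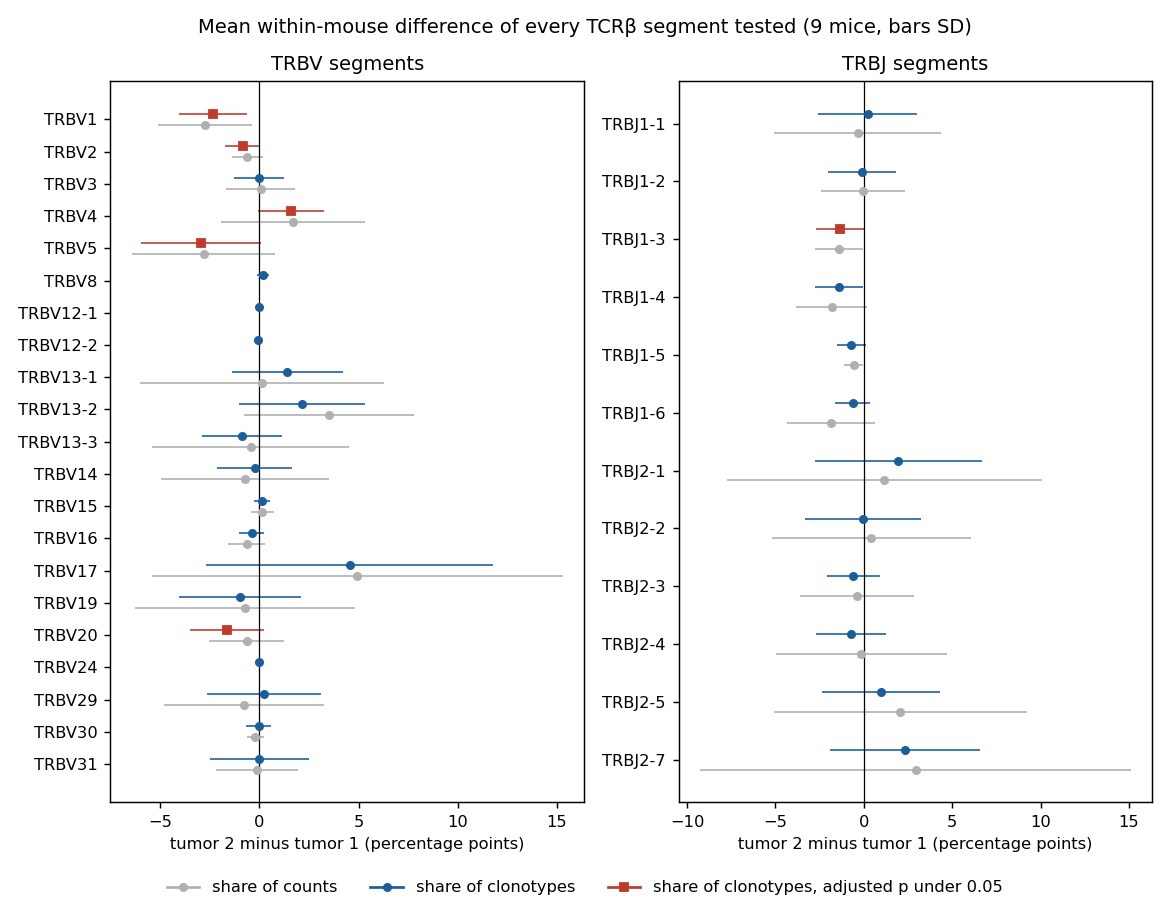
Mean within-mouse difference, tumor 2 minus tumor 1, in percentage points (x axis, bars SD, 9 mice) for every TCRβ V and J segment tested, by share of counts (grey) and of distinct clonotypes (blue, or red squares where the adjusted p was under 0.05). The red squares are TRBV1, TRBV2, TRBV4, TRBV5, TRBV20 and TRBJ1-3, and TRBV17 has the largest positive mean, with bars that span 0.

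The J segments of the β locus lie in a pair of clusters, each behind its own D segment, and a V segment can join either. The TRBJ1 cluster taken as a whole made up 5.07%, 24.6% and 43.8% of the counts of tumor 1 and 3.31%, 16.5% and 37.1% of those of tumor 2. It was lower in tumor 2 in 9 of 9 mice, by 6.03 ± 4.69 percentage points on average, and a summed list was given no test. Of its 6 members 3 were lower at an unadjusted exact p under 0.05 by counts and none was higher, against 20.7% of all 29 segments lower, and the median difference of the members was -0.983 against -0.346 over all. The 3 were TRBJ1-3 (-1.40 ± 1.34, adjusted p = 0.151), TRBJ1-5 (-0.561 ± 0.535, adjusted p = 0.151) and TRBJ1-4 (-1.81 ± 2.02, adjusted p = 0.189). By clonotypes the cluster was lower in 7 of 9 mice (29.6 ± 5.22% in tumor 1 and 25.7 ± 6.02% in tumor 2), with 1 of 6 members called, against 18.2% of all segments. The TRBJ2 cluster took up the difference, and 0 of its 6 members passed under either weighting. Its most used member, TRBJ2-7, differed by 2.92 ± 12.2 percentage points of counts and TRBJ2-1 by 1.15 ± 8.90. Without mouse 7 the first was -0.260, and without mouse 3 the second was -0.810. In the 3 time-matched mice the TRBJ1 cluster differed by -0.734 percentage points of counts, lower in tumor 2 in 2 of 3.

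**Figure D3:**
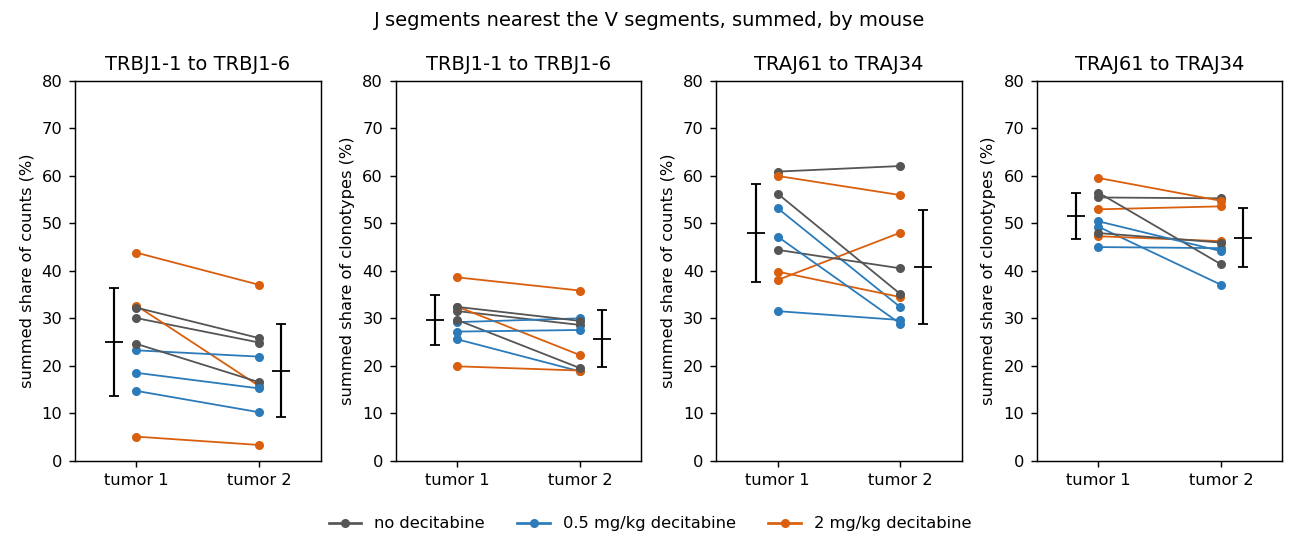
Summed share (%) of the J segments that lie nearest the V segments, TRBJ1-1 to TRBJ1-6 and TRAJ61 to TRAJ34, by counts and by distinct clonotypes in tumor 1 and tumor 2 (lines join the tumors of a mouse, black bars mean and SD). The TRBJ1 sum by counts was lower in tumor 2 in 9 of 9 mice, and the TRAJ sum by clonotypes in 8 of 9.

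Other TCRβ groups moved less. The 3 segments of the Vβ8 family (TRBV13-1, TRBV13-2 and TRBV13-3) summed to 38.2 ± 19.0% of the counts of tumor 1 and 41.4 ± 15.3% of those of tumor 2, higher in 5 of 9 mice, with 0 of 3 called, as of all 29 segments by counts. By clonotypes the family went from 35.4 ± 7.98% to 38.1 ± 7.43%, higher in 7 of 9 mice, with 0 of 3 called, against 18.2% of all 33 segments. The Vβ segments whose T cells are deleted in BALB/c mice by endogenous superantigens (TRBV12-1, TRBV12-2, TRBV15, TRBV16 and TRBV26) summed to 1.49 ± 1.25% and 0.954 ± 0.645% of counts, with 0 of 2 tested members called.

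No TCRα segment passed under either weighting, 0 of 94 by counts (0%, lowest adjusted p = 0.0525) and 0 of 103 by distinct clonotypes (0%, lowest adjusted p = 0.201). By counts 20 segments had an unadjusted exact sign-flip p under 0.05 (21.3%), 18 lower in tumor 2 (19.1%) and 2 higher (2.13%), and by clonotypes 11 did (10.7%), 9 lower (8.74%) and 2 higher (1.94%). The smallest p that 9 mice allow was reached by 7 of the 94 segments, each lower in tumor 2 in 9 of 9 mice. edgeR's quasi-likelihood test on the counts, with the mouse as a block, called 11 of 94, all lower in tumor 2 (11.7%), and 0 of 103 by clonotypes (10 at an unadjusted p under 0.05). In that fit of the counts 84 of the 94 log2 fold changes were negative, with a median of -1.02, whereas 56 of the 94 mean shares were lower and 38 higher. The names of several TRAV segments mark near-identical copies of the duplicated part of the locus (D and N in the name), so reads may be split between copies and values of single copies are uncertain. With TRAV segments summed by family, 0 of 62 passed by counts and 0 of 63 by clonotypes (14 and 9 at an unadjusted exact p under 0.05).

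TRAV3-1 made up 0.992%, 3.67% and 7.18% of the TCRα counts of tumor 1 and 0.414%, 0.933% and 2.31% of those of tumor 2, a difference of -2.40 ± 1.49 percentage points (adjusted p = 0.0525, edgeR log2 fold change -1.64 with adjusted p = 0.0456). TRAV14N-3 was at 0.269%, 0.648% and 1.79% in tumor 1 and at 0.0693%, 0.126% and 0.235% in tumor 2, so that its ranges did not overlap (-0.586 ± 0.482). TRAV6-4 was at 0.336% in the median library of tumor 1 and 0.0972% in that of tumor 2, and its mean difference of -0.770 was mostly that of mouse 16, without which it was -0.208. TRDV1, a V segment of the δ locus, which lies within the α locus, went from 0.705 ± 0.396% to 0.210 ± 0.152% of counts. It was also lower in 9 of 9 mice by clonotypes, from 1.01 ± 0.311% to 0.560 ± 0.290% (adjusted p = 0.201).

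Among the J segments TRAJ52 spanned 0.922%, 1.56% and 3.02% of counts in tumor 1 and 0.287%, 0.627% and 2.48% in tumor 2, a difference of -0.986 ± 0.492 with 9 of 9 mice lower (adjusted p = 0.0525). TRAJ38 differed by -1.05 ± 2.11, also lower in all 9 mice, and by -0.369 without mouse 3. TRAJ57 was lower in 8 mice by counts (-1.73 ± 1.28, adjusted p = 0.0668) and in 9 by clonotypes (-1.35 ± 0.900, adjusted p = 0.201). The segments of highest share moved less evenly. TRAV3-3 went from 8.11 ± 6.54% to 13.1 ± 11.7% of counts (7 of 9 mice higher, adjusted p = 0.286), and differed by 5.00 with all mice and by 2.78 without mouse 3. TRAJ30 differed by 3.09 ± 9.95, and by -0.0606 without mouse 19.

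TRAJ segments are used in an order in the thymus, those nearest the V segments first and those nearest the C segment after further rounds of rearrangement. The V-proximal group, TRAJ61 to TRAJ34, summed to 51.6 ± 4.82% of the clonotypes of tumor 1 and 47.0 ± 6.30% of those of tumor 2, lower in 8 of 9 mice. Of its 19 members tested 4 were lower at an unadjusted exact p under 0.05 (against 8.74% of all 103 segments) and 15 had a negative mean, with a median of -0.235 against -0.0795 over all. By counts the sum went from 47.9 ± 10.3% to 40.8 ± 12.0%, lower in 7 of 9, with 4 of 19 members lower at that p against 19.1% of all 94 segments. In the time-matched mice the sum differed by -0.756 by clonotypes, and by counts by 1.97, lower in 0 of 3.

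The larger TRAV families were summed over their members. By clonotypes the TRAV12 family was higher in tumor 2 in 9 of 9 mice (6.39 ± 1.71% to 8.77 ± 4.04%), with 0 of 5 members called and 1 higher at an unadjusted exact p under 0.05 (against 0% and 1.94% of all 103 segments), TRAV12N-2 (0.0792 ± 0.0733% to 0.291 ± 0.267%). By counts it was higher in 6 mice. The TRAV7 family, the most used by counts, went from 23.8 ± 11.7% to 18.9 ± 11.7% of counts (lower in 7 of 9) and from 19.7 ± 4.71% to 19.3 ± 6.72% of clonotypes (lower in 4). The TRAV3, TRAV6, TRAV9, TRAV13 and TRAV14 families differed by -0.868 to 2.58 percentage points of counts, none with a member called.

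The invariant α chain of natural killer T cells joins TRAV11 to TRAJ18. It made up 0.0892%, 0.338% and 1.83% of the TCRα counts of tumor 1 and 0%, 0.121% and 0.530% of those of tumor 2. It was lower in 8 of 9 mice (-0.377 ± 0.637 percentage points, exact sign-flip p = 0.0898, adjusted p = 0.180 over the 4 invariant chain values), mouse 7 being the exception, and without mouse 19 the mean difference was -0.196. The share of 0 was that of tumor 2 of mouse 19, where a count of 0 allows a share of up to 0.00344%. The number of clonotypes with this pair, in all retained counts, went from 2 to 17 (median 6) to 0 to 4 (median 2), with an adjusted exact sign-flip p of 0.0625. These numbers are not at equal depth, and those of all TCRα clonotypes went from 1216 to 2818 to 515 to 1849. The pair of mucosal-associated invariant T cells, TRAV1 with TRAJ33, was at 0.0831 ± 0.109% and 0.0268 ± 0.0488% of counts (adjusted exact p = 0.223), a difference of -0.0562, and of -0.0220 without mouse 19. TRAV11 as a whole was lower in tumor 2 in 7 of 9 mice, and its mean difference of 1.81 ± 6.67 percentage points was set by mouse 20, without which it was -0.409.

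Mean CDR3 length did not differ detectably under any of the 4 measures (adjusted p = 0.945 in each, exact sign-flip test). The TCRβ mean by clonotypes was 13.5, 13.7 and 14.1 residues in tumor 1 and 13.4, 13.6 and 14.7 in tumor 2, with the conserved ends included, a difference of -0.0366 ± 0.303 residues. By counts it was 13.3 ± 0.453 and 13.2 ± 0.768. The TCRα mean was 13.6 ± 0.0885 and 13.6 ± 0.168 residues by clonotypes and differed by 0.0399 ± 0.203 by counts. Of the single lengths from 8 to 20 residues, 2 of 13 passed for TCRβ clonotypes (15.4%), and 0 of 13 in each of the other 3 families (0%). Sequences of 10 residues rose from 3.46 ± 3.12% to 4.98 ± 3.33% of the TCRβ clonotypes, higher in 9 of 9 mice. Those of 17 residues fell from 1.68 ± 0.308% to 1.03 ± 0.436%, lower in 9 of 9 (adjusted p = 0.0254 for both, exact sign-flip test). By counts the 17-residue sequences went from 0.775 ± 0.451% to 0.231 ± 0.203%, also in 9 of 9 (adjusted p = 0.0508, 1 length with an unadjusted p under 0.05). TCRα sequences of 14 residues went from 27.3 ± 2.66% to 24.7 ± 2.01% of the clonotypes, lower in 9 of 9 (adjusted p = 0.0508).

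Clone size differed between the tumors on both chains. TCRα clonotypes above 1% of the counts held 17.4%, 44.5% and 57.2% of the counts of tumor 1 and 47.4%, 72.3% and 75.6% of those of tumor 2. The share rose in 9 of 9 mice, by 27.8 ± 16.0 percentage points (adjusted p = 0.00977, exact sign-flip test over 9 mice, adjusted over 10 clone-size measures). The smaller classes fell, those of 0.1 to 1% from 29.7 ± 7.17% to 16.1 ± 4.77% (8 of 9 mice, mouse 7 the exception, adjusted p = 0.0130) and those below 0.1% from 28.4 ± 6.94% to 14.1 ± 4.72% (9 of 9, adjusted p = 0.00977). The largest TCRα clonotype of a library rose from 10.9 ± 5.36% to 17.1 ± 5.02% of counts (9 of 9, adjusted p = 0.00977). The number of TCRα clonotypes at equal depth fell from 1043, 1594 and 2021 to 515, 1049 and 1478, lower in 9 of 9 mice, with a mean log2 ratio of -0.74 ± 0.54 (adjusted p = 0.00977).

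For TCRβ the clonotypes above 1% held 29.8%, 59.4% and 81.6% of the counts of tumor 1 and 51.0%, 75.9% and 86.0% of those of tumor 2. The share rose in 8 of 9 mice, by 16.3 ± 17.0 percentage points (adjusted p = 0.0195), and mouse 4 went from 59.4% to 51.0%. Clonotypes below 0.1% fell from 26.9 ± 9.42% to 13.5 ± 5.91% of counts (8 of 9, adjusted p = 0.0167). The number of TCRβ clonotypes fell from 2208 ± 358 to 1472 ± 531 (log2 ratio -0.65 ± 0.57, 8 of 9, adjusted p = 0.0130), and mouse 4 was again the exception, with 2137 and 2589. The class of 0.1 to 1% (-2.92 ± 6.75 percentage points, adjusted p = 0.238) and the largest clonotype (3.03 ± 4.54, 8 of 9 higher, adjusted p = 0.0825) did not pass, and without mouse 19 they were -1.03 and 1.92. The number of clonotypes above 1% went from 13.0 ± 3.25 to 15.9 ± 3.24 for TCRβ and from 13.1 ± 2.14 to 15.9 ± 2.30 for TCRα, higher in 7 of 9 mice on each chain. With all retained counts in place of equal depth the mean differences in the share above 1% were 28.0 (TCRα) and 16.2 (TCRβ) percentage points. The widest rises were those of mouse 19 (17.4% to 72.1% for TCRα and 29.8% to 81.9% for TCRβ), whose log2 ratio of counts was 0.00 for TCRα and 1.07 for TCRβ. Mouse 7, with the lowest ratio of TCRα counts, went from 57.2% to 68.0%. Whether the counts of a library or the number of T cells sampled bear on these shifts was not tested.

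**Figure D4:**
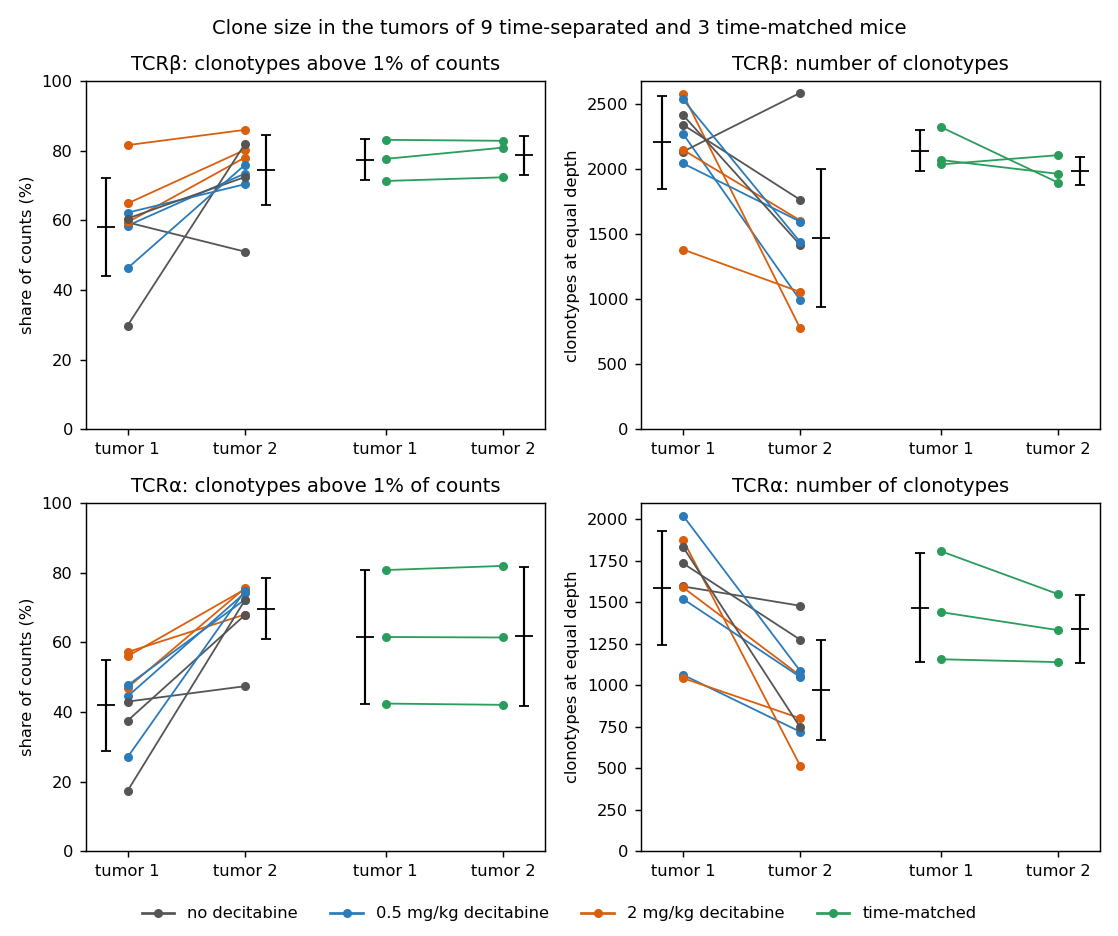
Share of counts in clonotypes above 1% (left, %) and number of clonotypes at equal depth (right) for TCRβ (top) and TCRα (bottom), in tumor 1 and tumor 2 of the 9 time-separated mice (colours give the dose) and the 3 time-matched mice (green), with black bars for mean and SD. The TCRα share rose in 9 of 9 time-separated mice, the TCRβ share in 8 of 9 with mouse 4 as the exception, and the time-matched pairs are nearly flat for the share.

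The distance between the tumors of a mouse in V usage does not depend on which tumor is numbered 1. It was the sum of the absolute differences of the V shares divided by 2, from 0 (the same usage) to 1 (no V segment in common). By TCRβ counts it ran from 0.110 to 0.396 in the 9 time-separated mice and from 0.0354 to 0.0776 in the 3 time-matched mice, so that the groups did not overlap (means 0.232 ± 0.0874 and 0.0572 ± 0.0211, exact permutation test of 9 against 3 mice p = 0.00909, adjusted p = 0.0121 over 4 distances). By TCRα counts the means were 0.362 ± 0.0852 and 0.0899 ± 0.0248, again with no overlap (exact permutation p = 0.00455, the smallest the design gives, adjusted p = 0.0121). By TCRα clonotypes they were 0.225 ± 0.0686 and 0.0901 ± 0.0161 (exact permutation, adjusted p = 0.0121). By TCRβ clonotypes they were 0.166 ± 0.103 and 0.0498 ± 0.00436, also without overlap, and did not pass (exact permutation, adjusted p = 0.0864), though without mouse 19 they did (difference 0.0849, adjusted exact permutation p = 0.0121). Without the time-matched mouse 6 none of the other 3 passed (adjusted exact permutation p = 0.0727 each), and without mouse 12 that by TCRα clonotypes did not. Mouse 19 lay highest in all 4 distances, at 0.414 by TCRβ clonotypes. The time-matched libraries held more counts in the median (594210 against 179872 for TCRβ and 292692 against 125762 for TCRα). Their ranges (375898 to 610800 for TCRβ and 176171 to 846655 for TCRα) overlapped those of the time-separated libraries. With all libraries of a chain thinned to 1 depth, the distances by counts differed by 0.175 for TCRβ and 0.272 for TCRα, as with all counts.

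**Figure D5:**
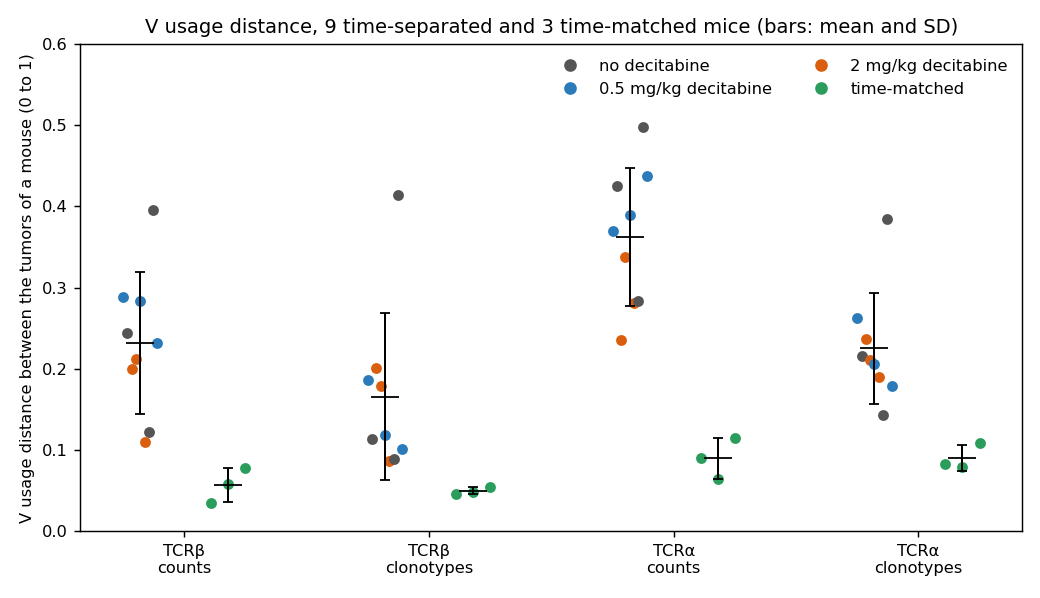
Distance in V usage between the tumors of a mouse (y axis, 0 to 1) for each chain and weighting, 9 time-separated mice (left points of each pair, coloured by dose) and 3 time-matched mice (right points, green), with black bars for mean and SD. The groups do not overlap in any of the 4 measures, and mouse 19, untreated, is the highest point of each.

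The shift from tumor 1 to tumor 2 did not differ detectably between the doses. Over 20 measures (the 6 called segments, 4 mean lengths and 10 clone-size measures) 0 passed (0%), the lowest exact permutation p was 0.179 (adjusted p = 0.993) and 0 had an unadjusted p under 0.05, in a design of 3 groups of 3 mice whose smallest p is 0.00357. TRBV1 differed by -2.59 ± 2.76 percentage points of clonotypes without decitabine, by -2.51 ± 1.40 at 0.5 mg/kg and by -1.98 ± 1.38 at 2 mg/kg. The TCRα share above 1% differed by 29.8 ± 25.2, 34.03 ± 12.2 and 19.5 ± 8.89 percentage points in the same order. Only the tumor left in place was exposed to the drug, and the labels do not tell which number it carries, so dose and tumor number cannot be set against each other further.

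The same 20 measures were compared with the shift from tumor 1 to tumor 2 in the time-matched mice, where 0 passed (0%) and 4 had an unadjusted exact permutation p under 0.05. These were TRBV1 (-2.36 against 0.320 percentage points, p = 0.0182) and the TCRα shares above 1% (27.8 against 0.228, p = 0.0227), of 0.1 to 1% (-13.6 against 0.790, p = 0.0409) and below 0.1% (-14.2 against -1.02, p = 0.0409), each with an adjusted exact permutation p of 0.2. The called segments, TRBV1 among them, were chosen for their shift in the same time-separated mice. The p of a called segment in this comparison is therefore biased toward a difference and is not an independent test. With the time-matched tumors the number 1 or 2 carries no difference in harvest day.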

How the data were processed

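TCRβ and TCRα libraries of 24 tumors were made by the authors with unique molecular identifiers and processed with the Cogent NGS Immune Profiler (v2.0). Per the file headers the deposited values are read counts per receptor sequence, not normalized. The paper names an analysis based on these identifiers among the processing steps, and whether reads sharing an identifier were merged in the deposited counts is not stated. Genome build and segment reference are not given in the sources used here, so no coordinates are printed. Intervals (95%, Clopper-Pearson) and floors (3 counts) cover counting error only.

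Sequences with a stop mark or fewer than 2 counts were left out (of the counts, 6.78 to 9.65% for TCRβ and 9.23 to 27.7% for TCRα carried the mark in the 36 libraries compared, and 1.39 to 9.71% were single counts). Shares of counts used all retained counts, and clonotype shares, clone sizes and clonotype numbers were means over 20 draws (seed 20) without replacement at equal depth. The mouse pairs the tumors. Within-mouse differences were tested by exact two-sided sign-flip tests (512 sign patterns), with Benjamini-Hochberg adjustment within the family named beside each result and a threshold of 0.05.

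Segments were named if called, if among the 3 of lowest p or the 2 of highest mean share of their class and weighting. Clonotypes were the largest of each mouse and the largest fall and gain of each called segment. Of these, some are not reported here. The segments, lists and tests were chosen with earlier results of these data known. Alternatives were edgeR 4.0.16 (R 4.3.3, mouse as block), other count minimums (1 and 10), other depths, unpaired tests, nucleotide clonotypes, log2 ratios (0.5 added to counts), mice or doses left out and, added after seeing the data, merging of near-identical clonotypes and small clonotypes alone. In simulated tables with 6 planted changes each, the sign-flip test recovered nearly all of them for TCRβ. The planted changes were larger than those of the called segments, so this does not give the power for the latter. On average 1.34 (counts) and 1.94 (clonotypes) other TCRβ segments were called per table. For TCRα it recovered a minority by counts and none by clonotypes. There at least 8 and 9 segments have to pass together for any call, more than were planted, so an absence of TCRα calls says little. Python 3.11.15, numpy 2.4.6 and pandas 2.3.3 were used.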

Additional observations from a re-analysis of the deposited data

Results flagged for a closer look

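Single mice stood apart from the other 8 in 6 of 26 sets of 9 within-mouse values examined (chance alone flags about 1 in 20). The sets come from the same mice and are not independent, so 6 of 26 cannot be read as an excess over chance. Mouse 19, untreated, was the lowest in the TRBV20 share of clonotypes (-5.98 percentage points) and in the share of TCRβ counts held by clonotypes of 0.1 to 1% (-18.1), and the highest in the V usage distance by clonotypes (0.414 for TCRβ and 0.384 for TCRα). Mouse 7, at 2 mg/kg decitabine, was the lowest in the log2 ratio of TCRα counts (-3.06). Mouse 16, at the same dose, was the highest in the change of mean TCRα CDR3 length by counts (0.522 residues).

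The V usage distance between the tumors of a mouse was larger in time-separated than in time-matched mice by 0.175 for TCRβ counts, 0.272 for TCRα counts and 0.135 for TCRα clonotypes (exact permutation test over 9 and 3 mice, adjusted p = 0.0121 each).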

How the results depend on the processing

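Of 420 alternative values of the 24 main results 353 kept their direction and side of the threshold, and of 990 for 42 single segments 848 did. The 6 TCRβ segments called by clonotypes became 0 without the replicate block (an unpaired test that ignores the mouse), with adjustment over both chains, with a count minimum of 10, with nucleotide clonotypes, with near-identical clonotypes merged, with any dose group left out and, as a range over single mice left out, 0 to 0. They became 5 with V and J adjusted separately (TRBJ1-3 lost), 3 with clonotypes below 0.1% alone and 2 with edgeR, and rose to 7 with no filter on low segments and 8 with a count minimum of 1, both with all 6 among them. TCRβ calls by counts became 1 with edgeR. TCRα calls by counts became 5 without the replicate block, 5 with V and J adjusted separately and 11 with edgeR. With 6 mice at least 21 of 33 TCRβ segments would have to reach the smallest p (0.0313), and with 8 mice at least 6 (0.00781). Losses on leaving out a dose or a mouse therefore say little.

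Without the 0.5 mg/kg mice the clone-size calls were lost at -0.78 (TCRα number, log2), 24.7, -10.8 and -13.9 (TCRα shares above 1%, of 0.1 to 1% and below 0.1%), 3.47 (largest TCRα clonotype), -0.57 (TCRβ number, log2), 15.7 and -12.2 (TCRβ shares above 1% and below 0.1%). Without the 2 mg/kg mice they were lost at -0.64, 31.9, -16.5, -15.4, 8.02, -0.54, 18.1 and -15.2 in the same order, and without the untreated mice at -13.4 (TCRα, 0.1 to 1%). Without the largest clonotype of each mouse that of the TCRα was 4.98. With single mice left out all these calls held, over -0.82 to -0.60, 24.4 to 30.7, -15.6 to -12.0, -16.0 to -12.3, 4.65 to 7.00, -0.76 to -0.51, 11.8 to 19.4 and -15.5 to -10.8. The largest TCRβ clonotype ranged over 1.92 to 3.96 (passing without mouse 11) and the log2 ratio of TCRβ counts over -0.80 to -0.39. With untreated mice alone the V distances differed by 0.313 and 0.158 (TCRα counts and clonotypes) and 0.197 (TCRβ counts), where 3 against 3 cannot go below 0.1. With single mice left out they ranged over 0.255 to 0.288, 0.115 to 0.146 and 0.154 to 0.190, and for TCRβ clonotypes over 0.0849 to 0.126, losing or gaining calls only where the text above says so. With a count minimum of 10 that last distance passed, at 0.116.

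Differences near 0 changed sign. Mean CDR3 length differed by -0.0113 (TCRα counts), 0.116 and 0.0762 (TCRβ counts and clonotypes) without the 2 mg/kg mice, and by 0.0118 and 0.00130 (TCRα clonotypes) without the untreated and the 0.5 mg/kg mice. With single mice left out the 4 ranges were -0.0203 to 0.0700, -0.159 to 0.0137, -0.117 to 0.00111 and -0.0354 to 0.0113. By counts TRAJ30 was -0.0841 as a log2 ratio, -0.11 with edgeR, -0.0297 without the untreated mice and -0.0606 to 4.06 over single mice. TRAJ49 was 0.0684 without the largest clonotypes, 0.461 without the untreated mice and -1.54 to 0.818 over single mice. TRBJ2-1 was -1.11 and -0.474 without the untreated and the 0.5 mg/kg mice and -0.810 to 2.92 over single mice, TRBJ2-7 -2.50 without the 2 mg/kg mice and -0.260 to 4.92, and TRBV13-1 -1.58 without the 0.5 mg/kg mice and -0.868 to 1.90. By clonotypes TRAV7-4 was 0.125 without the untreated mice and TRBV13-1 -0.202 with near-identical clonotypes merged. The causes were not tested.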

Other observations

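TRAV11 took 23.5% of the TCRα counts of tumor 2 of mouse 20 (0.5 mg/kg decitabine) and 3.92% of those of its tumor 1, against 0.0266 to 1.83% in the libraries of the other 8 mice. Its leading clonotype there, which carried TRAJ32 and was chosen after its values were seen, held 22.1% of the counts of tumor 2 (rank 1 by size) and 2.74% of those of tumor 1 (rank 3), and had 0 counts in the other 16 libraries. The pair TRAV11 and TRAJ18 held 0.779% of the counts of tumor 1 of this mouse and 0.0443% of those of tumor 2, so that by share of TRAV11 alone mouse 20 was the widest exception to the 7 mice with a lower share in tumor 2.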
